A study of Mus musculus with 4 samples.

Results

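The genes described here are the semaphorins, plexins, neuropilins, Slits, Robos, netrins and Unc5 receptors detected in sorted skeletal cells of the mouse. They were taken by the letters of the gene symbol: Sema, Plxn, Nrp1, Nrp2, or Slit, Robo, Ntn and Unc5 followed by a digit or a letter from A to D. A gene also needed at least 20 unique molecular identifiers (UMIs, counted cDNA molecules) over the first sequencing lane of both pools. Of 51 genes matched by letters, 38 passed, out of 14688 genes that reached the same minimum and 32286 listed features. They comprise 4 secreted class 3 semaphorins, 10 other semaphorins, 8 plexins, 2 neuropilins, 2 Slits, 3 Robos, 3 netrins and 4 Unc5 receptors. Unc50, a Golgi protein gene that shares only its first letters with the netrin receptors, and Plxna4os3, an antisense RNA of Plxna4, also met the rule. The minimum divided Sema3f (20 UMIs), Unc5d (22) and Plxna4os3 (24), which entered, from Sema3c (17), Sema6b (16) and Unc5cl (15), which did not.

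Semaphorins are secreted or membrane-bound signals that bind plexins, and most class 3 semaphorins need a neuropilin as the co-receptor that holds the ligand. Slits are large secreted proteins that bind Robo receptors, and netrins bind Dcc, neogenin and the Unc5 family. The same genes that steer axons are used outside the nervous system: Sema3a has been described as a bone-protecting signal, Sema4d as a signal that restrains osteoblasts, and Slit3 as a signal between bone cells and vessels.

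The study asked which stromal cells supply RANKL, the osteoclast-inducing cytokine encoded by Tnfsf11, when bone is lost through disuse. All mice were C57BL/6J with genotype Tnfsf11tTA/+;LC1;R26-tdTomato, a fate-mapping system in which cells that have used the Tnfsf11 locus carry the red reporter tdTomato, and all had doxycycline from E0 to birth, which kept fetal cells unlabelled. Hindlimbs of 6 mice were immobilized for 2 weeks from 8 weeks of age, 4 mice served as controls, and the animals of each group were pooled. Live CD45.2-Ter119-tdTomato+ cells from femurs, tibias and marrow at 10 weeks gave 1 single-cell library per group, sequenced on 2 lanes. With 1 pool per group no test between groups was possible: every interval below is a 95% interval that covers counting error only and leaves out the spread between animals. The control and immobilized pools kept 1408 and 1391 cells, with a median of 5597 and 5708 UMIs per cell. A tdTomato UMI was seen in 31.0% and 34.3% of them, and a UMI of Ptprc, which encodes CD45, in 3.69% and 5.07%.

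The cells formed 3 classes large enough in both pools. Lepr+ CAR stromal-like cells, named for Cxcl12-abundant reticular cells of the marrow, numbered 562 (control) and 351 (immobilized). Osteo-primed stromal-like cells, marked by Wif1, Limch1 and Postn, numbered 208 and 358, and osteoblast-like cells, marked by Bglap and Ifitm5, 272 and 260. Cluster 8 (157 and 92 cells) passed 6 of 9 osteoblast markers but was led by other genes, and cluster 11 (39 and 112 cells), led by Adamts18, Ntng1 and Panx3, passed no marker list; both are given by number. The CAR stromal-like class includes cluster 1 (41 and 33 cells), which was led by the adipocyte genes Fabp4, Plin1 and Cfd, and the osteo-primed class includes cluster 5, which had Mmp9 of the osteoclast list among its leading genes. Most CAR stromal-like cells lay in clusters 0, 6 and 12 in the control pool and in clusters 0, 12 and 13 in the immobilized pool. The sexes were mixed in each pool and their share differed: of cells whose sex could be told, 47.3% of CAR stromal-like, 66.8% of osteo-primed and 94.6% of osteoblast-like cells were female in the control pool, against 30.1%, 55.8% and 75.4% in the immobilized pool. Levels are given as CPM, the UMIs of a gene per 1000000 UMIs of its class. They are compared between classes for 1 gene at a time, and because the classes were built from the same cells, those differences are a description. Unless another cell group is named, the highest level of a gene means the highest of the 3 classes. Other cell groups can lie above it.

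The start-site sequences of 4 members, 2 with their highest level in osteo-primed cells (Slit2, Sema7a) and 2 with their highest level in osteoblast-like cells (Robo2, Sema3d), are shown to set the letters beside these patterns. They come from RefSeq promoter records on GRCm38.p6, 5′ to 3′ on the gene's strand, and end just before the start site or the first annotated exon: chr5:47982905-47983137 (+) for Slit2, chr9:57939862-57940111 (+) for Sema7a, chr16:74411826-74412075 (-) for the first of 3 Robo2 records, and chr5:12382916-12383165 (+) for Sema3d. Capitals mark a TATAAA in Slit2 and an EBF-type CCCNNGGG in Robo2.
Slit2: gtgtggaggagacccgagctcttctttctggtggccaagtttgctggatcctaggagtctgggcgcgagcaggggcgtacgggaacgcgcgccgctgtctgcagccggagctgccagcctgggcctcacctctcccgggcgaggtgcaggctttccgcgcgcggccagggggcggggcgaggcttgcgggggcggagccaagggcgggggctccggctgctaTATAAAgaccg
Sema7a: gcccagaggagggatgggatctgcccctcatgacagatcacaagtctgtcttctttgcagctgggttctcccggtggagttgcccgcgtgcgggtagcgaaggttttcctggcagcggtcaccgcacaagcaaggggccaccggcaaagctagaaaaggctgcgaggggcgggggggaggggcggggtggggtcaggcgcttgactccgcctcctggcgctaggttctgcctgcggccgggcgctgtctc
Robo2: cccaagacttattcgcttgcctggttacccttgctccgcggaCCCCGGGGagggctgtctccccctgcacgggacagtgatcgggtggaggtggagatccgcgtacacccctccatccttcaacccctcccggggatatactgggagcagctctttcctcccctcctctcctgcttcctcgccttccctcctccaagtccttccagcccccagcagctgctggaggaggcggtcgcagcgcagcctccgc
Sema3d: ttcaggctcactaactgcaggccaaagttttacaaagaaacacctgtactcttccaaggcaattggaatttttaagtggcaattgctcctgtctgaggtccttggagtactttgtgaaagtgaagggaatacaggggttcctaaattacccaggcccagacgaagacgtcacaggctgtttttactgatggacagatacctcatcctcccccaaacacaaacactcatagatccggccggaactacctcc
These letters were searched in the 250 bases before 42 recorded start sites of 30 members, on both strands: TGTGGT (a RUNX core motif), CCCNNGGG (EBF) and TATAAA. The RUNX letters were in 6 of the 42 member windows, against 14% of all 32851 windows of that length, the EBF letters in 9, against 11.8%, and TATAAA in 1, that of Slit2, against 12.4%. Sema7a and Sema3d held none of the 3. G and C made up 70.4% of the Slit2 stretch, 66.4% for Sema7a and 65.6% for Robo2, but 46.8% for Sema3d.

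Across the classes, 31 members had at least 50 UMIs over the kept cells, and 25 of them had their highest level in the same class in both pools: 5 in CAR stromal-like, 9 in osteo-primed and 11 in osteoblast-like cells. Some of the 25 were near ties. For Plxnb1, Plxna3, Sema4b, Unc50 and Sema4a the interval of the highest over the next class held a ratio of 1 in both pools. Sema4a rested on 3 and 5.5 UMIs in osteo-primed cells. The full order of the 3 classes was the same for 22 members. Among the 3 classes, 4 members had a level at least 5 times that of each other class in both pools. They were Ntn1 and Sema7a in osteo-primed cells, and Sema3d and Sema3b in osteoblast-like cells. Other cell groups were left out of this rule.

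**Figure D1:**
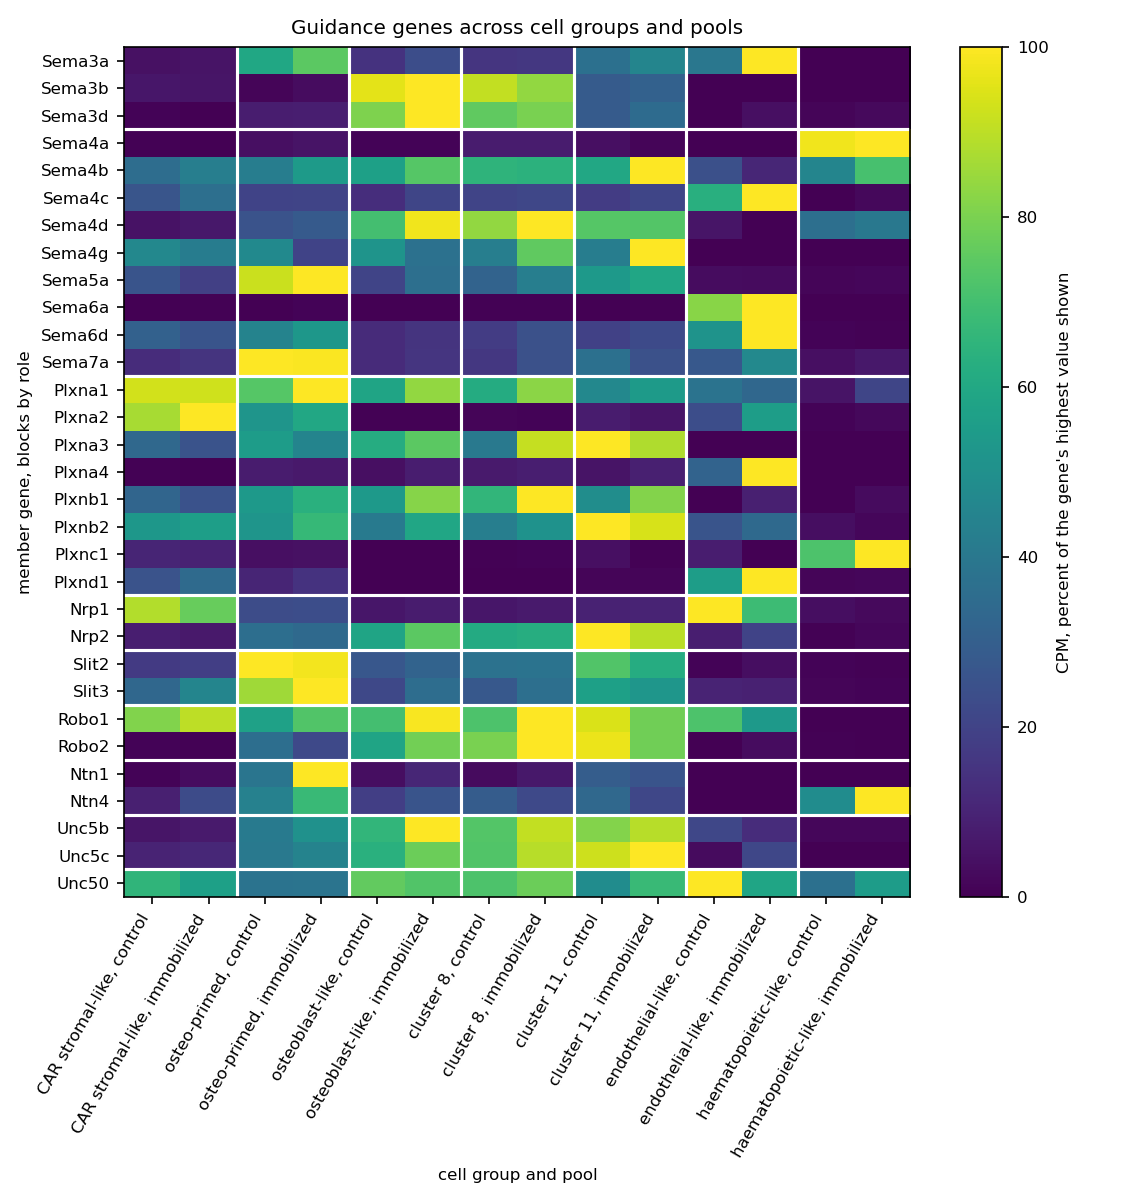
Level of the 31 members with at least 50 UMIs (rows, in blocks by role) in 7 cell groups of each pool (columns), as CPM in percent of that gene's highest value shown. Adjacent columns of 1 cell group look alike for most rows, while the CAR stromal-like, osteo-primed and osteoblast-like columns differ; the endothelial-like columns rest on 9 and 17 cells.

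Among the secreted class 3 semaphorins, Sema3a and Sema3d were found in different classes. Of the 3 classes, Sema3a was highest in osteo-primed cells, at 114 CPM (97.3 to 132) in the control and 143 (128 to 160) after immobilization. It had 28.0 and 44.9 CPM in osteoblast-like and 8.80 and 10.0 in CAR stromal-like cells. In the immobilized pool the few endothelial-like cells lay above the osteo-primed level, on 20 UMIs. Sema3d had its highest level on the osteoblast side: 363 and 450 CPM in osteoblast-like cells, 36.5 and 37.4 in osteo-primed cells, and 3.80 and 1.35 in CAR stromal-like cells. Sema3b followed Sema3d, with 70.4 and 73.4 CPM in osteoblast-like cells and at most 4.40 CPM in each of the other two classes. Sema3f had 0 UMIs in all 3 classes and was found in the few endothelial-like cells, at 75.9 and 138 CPM.

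Of the other semaphorins, Sema5a, a membrane protein with thrombospondin repeats, was highest in osteo-primed cells, at 1168 CPM (control) and 1272 CPM (immobilized). Sema7a, the membrane-anchored semaphorin that also signals through integrins, had 335 and 333 CPM there. These levels were 7.90 (6.39 to 9.83) and 6.48 (5.34 to 7.91) times the next of the 3 classes. Cell groups outside the 3 classes also had Sema7a, such as the few endothelial-like cells, on 8.5 and 16.5 UMIs. They are not part of these ratios. Sema6d, a transmembrane ligand, was also highest of the 3 classes in osteo-primed cells, at 292 and 346 CPM. The few endothelial-like cells had a higher Sema6d level in both pools, on 31 and 68.5 UMIs. Of the 3 classes, Sema4d was highest in osteoblast-like cells, at 201 and 281 CPM, with 240.6 and 286.5 CPM in cluster 8. It was present in haematopoietic-like cells as well, at 105 and 115 CPM. These cells, which the CD45.2 and Ter119 gates should have removed, numbered 67 and 110. Sema4a had 46.9 and 47.9 CPM in haematopoietic-like cells and under 2.50 CPM in each of the 3 skeletal classes. Sema6a was largely endothelial-like, at 612 and 743 CPM. The low members Sema4b, Sema4c, Sema4g and Sema6c stayed between 0 and 47.0 CPM in the 3 classes.

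Of the plexins, receptors for these ligands, Plxna2 and Plxnd1 were high in marrow stroma and nearly missing from osteoblasts. Not all plexins shared this order. Plxna2 had 1013 CPM (974 to 1053) in control and 1166 (1117 to 1216) in immobilized CAR stromal-like cells, 609 and 698 in osteo-primed cells, and 8.82 and 5.66 in osteoblast-like cells. Plxnd1, a receptor best known from vessels, followed the same order: 152 and 206, 61.9 and 87.1, and 1.08 and 1.89 CPM. Plxna1 and Plxnb2 differed little between classes, from 16.7 to 28.6 and from 34.2 to 56.2 CPM, while Plxnb1 was lowest in CAR stromal-like cells, at 17.8 and 13.8 CPM, against 29.4 and 44.7 in osteoblast-like cells. Plxnc1 was a haematopoietic-like gene, at 98.4 and 136 CPM, with at most 14 CPM in a skeletal class. Plxna4 was almost missing from CAR stromal-like cells (2.80 and 1.62 CPM) and present in osteo-primed cells (36.9 and 34 CPM).

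The neuropilins divided the stroma between them. Nrp1 had 878 CPM (841 to 915) in control and 762 (723 to 803) in immobilized CAR stromal-like cells and 60.4 and 75.7 CPM in osteoblast-like cells. Nrp2 had 289 and 234 CPM in CAR stromal-like cells, 1253 and 1181 in osteo-primed cells, and 2018 and 2587 in osteoblast-like cells. The highest Nrp2 level of the skeletal cells was in cluster 11, at 3461 and 3102 CPM. The contrast was also visible in cells thinned to 2000 UMIs each: in the control pool Nrp1 was then seen in 73.9% of CAR stromal-like and 12.2% of osteoblast-like cells, and Nrp2 in 43.6% and 93.5%. Unthinned, these shares were 89.3%, 42.5%, 62.9% and 99.6%, at median depths of 3978 and 10617 UMIs. In control haematopoietic-like cells, with a median of 2968 UMIs, Nrp1 was seen in 11.9% and Nrp2 in 6.72% of unthinned cells. Thinned, the shares there were 8.89% (2.48% to 21.2%) and 0% (0% to 7.87%), on 45 cells. The thinned Nrp1 share of osteoblast-like cells was thus not set apart from this background.

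Both Slits, the ligands of Robo receptors, were highest in osteo-primed cells. Slit2 reached 2375 CPM (2298 to 2453) and 2337 (2273 to 2401) there, 640 and 754 in osteoblast-like cells, and 406 and 440 in CAR stromal-like cells. Slit3 had 1891 and 2206 CPM in osteo-primed cells, 734 and 1004 in CAR stromal-like cells, and 474 and 792 in osteoblast-like cells. Of the receptors, Robo1 differed little between classes (146 to 252 CPM), whereas Robo2 rested almost wholly on the osteogenic side: 14 and 10.8 CPM in CAR stromal-like cells, 635 and 390 in osteo-primed cells, and 1033 and 1388 in osteoblast-like cells. In cluster 8 Robo2 had 1410 and 1764 CPM, and in cluster 11 it had 1714 and 1379. Robo4, a vascular Robo, was seen only in endothelial-like cells, at 130 and 305 CPM.

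Netrins were sparse. Ntn1 was found in osteo-primed cells, at 15.2 and 39.0 CPM, with at most 4.19 CPM in the other two classes, 11.4 and 10.2 CPM in cluster 11, and no UMI in haematopoietic-like cells. Ntn4 had 9.88 and 15.2 CPM in osteo-primed cells, 2.00 and 5.14 in CAR stromal-like and 4.18 and 5.87 in osteoblast-like cells. Ntn3 had under 3.00 CPM in each of the 3 classes. Of the 3 classes, osteoblast-like cells had the highest levels of the netrin receptor genes Unc5b and Unc5c. Unc5b had 251 and 381 CPM there against 22.0 and 27.8 in CAR stromal-like cells, and Unc5c 228 and 278 against 36 and 39.5. Cluster 8 had 279 and 346 CPM of Unc5b and 261 and 319 CPM of Unc5c, and Unc5c was higher still in cluster 11. Unc5a and Unc5d had under 5.00 CPM in the 3 classes. Unc50, which is no netrin receptor, ranged from 37.2 to 74.1 CPM.

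Between the pools, few members differed by 1.5-fold or more. Genes were compared where they had at least 50 UMIs (mean of both lanes) in at least 1 pool of the class. In CAR stromal-like cells 16 of the 38 members were compared and none was past 1.5-fold in either direction (without cluster 1, Sema4c was, at 0.73), beside 3.95% of 7503 genes higher and 3.77% lower in the immobilized pool. In osteo-primed cells 24 were compared, and 1 was higher (Ntn1) and 1 lower (Robo2), beside 4.43% and 2.7% of 6698 genes. In osteoblast-like cells 22 were compared, and 2 were higher (Plxna4 and Sema5a) and none lower, beside 5.76% and 13.9% of 6250 genes. In cluster 8, 19 were compared and none was past the fold, beside 3.07% and 10.9% of 4271 genes. These shares of members are near those of all genes, apart from the lower side of osteoblast-like cells and cluster 8, where no member stood.

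Smaller differences were more often above than below a ratio of 1. The share of all compared genes above 1 was not counted, so only the medians stand beside those of all genes. In osteo-primed cells 19 of 24 members had a ratio above 1, with a median log2 ratio of 0.17 beside 0.05 over all compared genes. In osteoblast-like cells 19 of 22 did, with a median of 0.21 beside -0.04, after centring on the median gene, which by total counts lay 0.24 log2 above 0. Without that centring the osteoblast-like median was 0.46 and 7 members were past 1.5-fold higher. In CAR stromal-like cells 10 of 16 had a ratio above 1, with a median of 0.13 beside 0.01. This median was -0.045 with the same cluster mix in both pools and 0.018 without cluster 13, and the osteo-primed median was 0.002 in male cells.

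**Figure D2:**
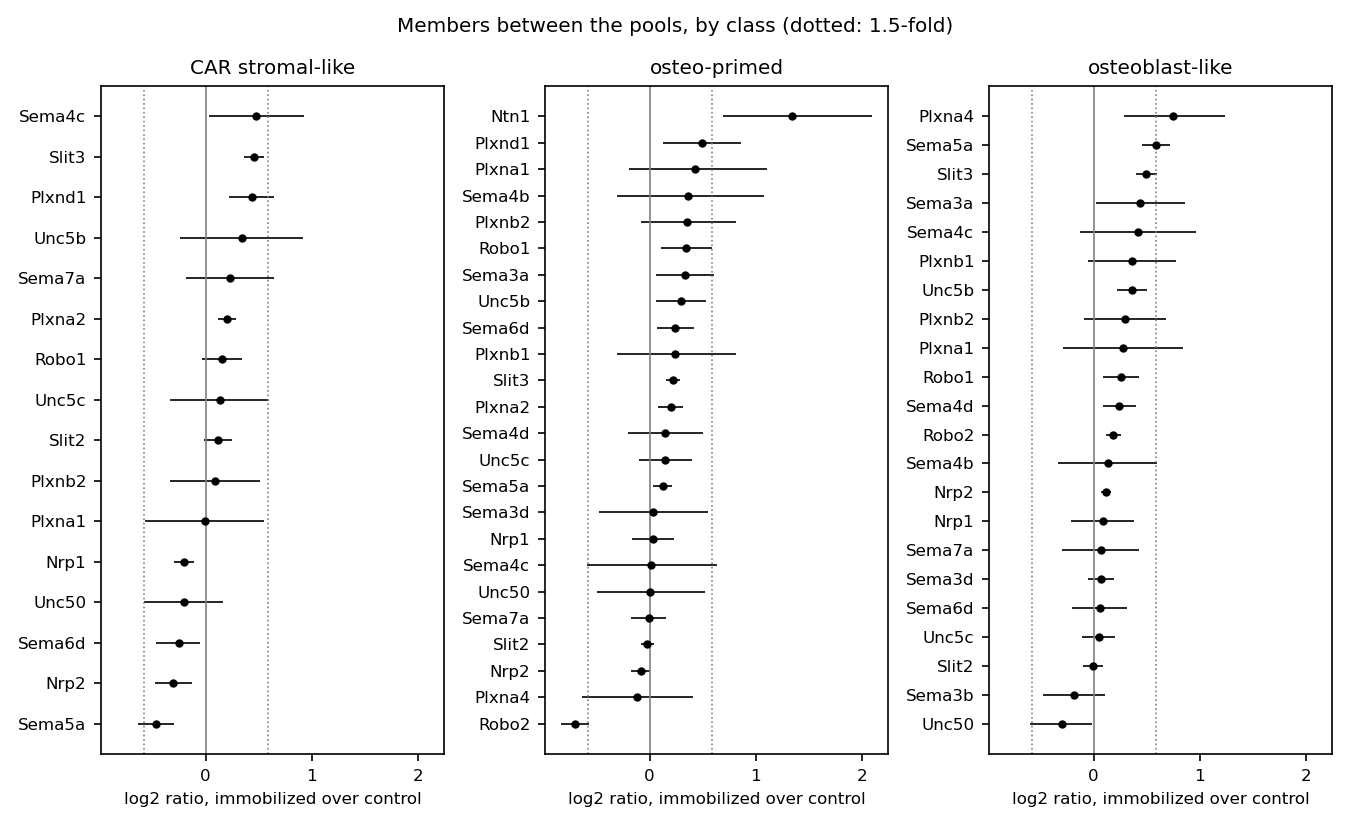
Log2 ratio of the immobilized over the control pool (x axis) for each member compared in CAR stromal-like, osteo-primed and osteoblast-like cells (y axis, ordered by ratio), with 95% intervals of counting error; dotted lines mark 1.5-fold. Ntn1 (1.34) and Robo2 (-0.70) stand past the lines in osteo-primed cells, and Plxna4 (0.75) and Sema5a (0.59) in osteoblast-like cells.

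Robo2 (chr16:73891839-74411825, minus strand of GRCm38) was lower in the immobilized pool in osteo-primed cells. It had 643 and 627 CPM in the 2 lanes of the control pool and 387 and 393 CPM in those of the immobilized pool. The lanes of a pool lay close together and far from the other pool, but they are repeat sequencing of 1 library. The log2 ratio was -0.70 (-0.84 to -0.57), on 964.5 and 860 UMIs, and it was -0.57, just inside 1.5-fold, with the clustering made without the members. It was -0.77 within cluster 4 and -0.61 within cluster 5, the 2 clusters of the class. Within female cells it was -0.37 (546 and 423 CPM) and within male cells -1.37 (895 and 347 CPM). In osteoblast-like cells the Robo2 ratio had the other sign, 0.18 (0.11 to 0.25). The summed level of the 9 osteoblast markers came to 19130 CPM for control and 19370 CPM for immobilized osteo-primed cells, but 2 of the 9 were past 1.5-fold lower, Bglap (644 and 291 CPM) and Bglap2 (347 and 148 CPM). Bglap and Bglap2 were also past 1.5-fold lower in CAR stromal-like and osteoblast-like cells and in cluster 8. The log2 ratio of Bglap was -2.14, -1.77 and -1.63 there. The part of these 2 genes in the Robo2 value was not tested. The 8 osteo-primed markers summed to 18710 and 19800 CPM, with none past 1.5-fold.

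Ntn1 (chr11:68209364-68400823, minus strand) was higher in the immobilized pool in osteo-primed cells. Its lanes gave 14.6 and 15.7 CPM for control and 37.0 and 41.0 CPM for immobilized cells. The log2 ratio was 1.34 (0.69 to 2.10), on only 23 and 86 UMIs. Ntn1 reached the minimum of 50 UMIs, and so was compared, only through the immobilized pool, where it was higher. The ratio was 1.33 in cluster 4 and 1.34 in cluster 5, and 1.47 in female and 1.25 in male cells, the last on 3.5 and 19.5 UMIs. Of osteo-primed cells, 7.45% (4.28% to 11.9%) of the control pool and 14.9% (11.4% to 19.1%) of the immobilized pool had an Ntn1 UMI, at median depths of 5918 and 5487 UMIs. After thinning to 2000 UMIs the shares were 3.90% (1.70% to 7.54%) and 6.96% (4.53% to 10.1%), with intervals that overlap. Haematopoietic-like cells had no Ntn1 UMI, which at median depths of 2968 and 2249 UMIs limits the share of cells with a UMI to 5.36% and 3.30% and says nothing of expression below that depth. Ntn1 was also among the 10 leading genes of cluster 5 against cells outside the class. The clustering may have used it, but its place among the variable genes was not recorded.

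Sema5a (chr15:32244810-32696341, plus strand) was higher in the immobilized pool in osteoblast-like cells. It had 264 and 258 CPM in the lanes of the control and 470 and 457 CPM in those of the immobilized pool. The centred log2 ratio was 0.59 (0.46 to 0.72), just past the 1.5-fold line, and it passed the line in 4 of 11 other settings. It was 0.45 when cluster 8 was counted as osteoblast-like, and 0.65 in female cells. In CAR stromal-like cells the ratio had the other sign, -0.47 (-0.64 to -0.30), with 332 and 240 CPM. That difference was -0.86 within male cells and 0.09 within female cells, and 0.11 with a stricter cell filter. In osteo-primed cells it was 0.12 (0.04 to 0.21), with 0.19 in female and -0.09 in male cells.

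Plxna4 (chr6:32144268-32588192, minus strand) had 20.6 and 19.4 CPM in the lanes of the control and 39.7 and 40.0 CPM in those of the immobilized pool in osteoblast-like cells. The log2 ratio was 0.75 (0.28 to 1.23) on 64.5 and 95 UMIs, and it was 0.82 in female cells. It was 0.47 with cluster 8 counted as osteoblast-like and 0.44 with the clustering made without the members, and it passed 1.5-fold in 6 of 11 other settings. The antisense gene Plxna4os3, which lies within Plxna4 on the other strand, had 22 UMIs over all kept cells and 0.46 and 2.31 CPM in osteoblast-like cells. In the osteoblast-like class the sequencing depth and makeup also moved: the median was 10617 and 8731 UMIs per cell, the median mitochondrial share was 5.40% and 6.45%, and the summed level of the 9 osteoblast markers was 222100 and 187900 CPM. Of these 9, Bglap (34230 and 11910 CPM) and Bglap2 (12590 and 4640 CPM) were past 1.5-fold lower. The 8 chondrocyte markers summed to 2346 and 733 CPM, nearly all of it Col2a1 (2320 and 705 CPM), and the 8 fibroblast markers to 4379 and 2766 CPM, nearly all of it Dcn. Of the markers of blood cells, which the sort should have removed, those of granulocytes and erythroid cells were higher in the immobilized pool in all 3 classes. The 8 granulocyte markers summed to 180 and 357 CPM in CAR stromal-like, 115 and 265 in osteo-primed and 70.7 and 184 in osteoblast-like cells. The 8 erythroid markers summed to 181 and 515, 50.1 and 108, and 32.8 and 66.2 CPM. Not all blood lists moved this way. The 6 dendritic markers, nearly all of it Bst2, were lower in each class, at 299 and 114, 246 and 100, and 77.9 and 26.0 CPM. The 8 B lineage markers had 3520 and 2728, 2247 and 1935, and 211 and 317 CPM. The part of these differences in the members' values was not tested.

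**Figure D3:**
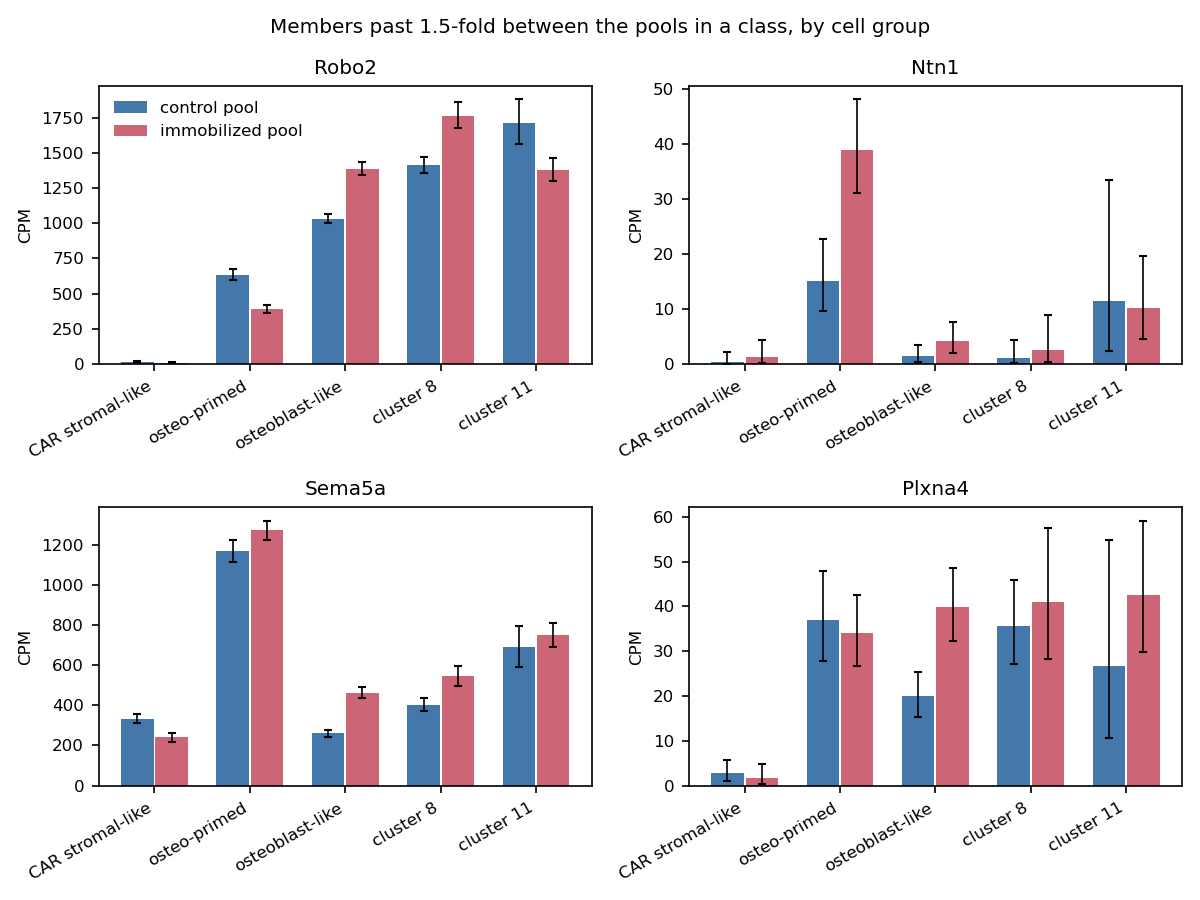
CPM (y axis, from 0) of Robo2, Ntn1, Sema5a and Plxna4 in 5 cell groups of the control and immobilized pools, with exact Poisson 95% intervals as error bars. Robo2 is lower in the immobilized pool in osteo-primed cells and in cluster 11, and higher in osteoblast-like cells and cluster 8; Ntn1 reaches 39.0 CPM in immobilized osteo-primed cells.

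Several members stayed inside 1.5-fold with intervals that left out a ratio of 1. Slit3 was higher in the immobilized pool in all 3 classes: the log2 ratio was 0.45 (0.36 to 0.55) in CAR stromal-like, 0.22 (0.15 to 0.29) in osteo-primed and 0.50 (0.40 to 0.60) in osteoblast-like cells. In osteo-primed cells this rested on female cells (0.40), with -0.08 in male cells. Unc5b had 0.30 in osteo-primed and 0.36 in osteoblast-like cells, and Robo1 had 0.34 and 0.26. In osteo-primed cells these values too had the other sign in male cells, at -0.34 for Unc5b and -0.10 for Robo1, against 0.60 and 0.53 in female cells. Sema3a had 0.33 (0.06 to 0.61) in osteo-primed and 0.44 (0.02 to 0.86) in osteoblast-like cells. Plxnd1 had 0.43 in CAR stromal-like and 0.49 in osteo-primed cells, and Plxna2 had 0.20 in each. Within CAR stromal-like cells Plxna2 had 0.32 (0.13 to 0.51) in female and -0.10 (-0.20 to 0.002) in male cells. Sema4d had 0.24 (0.09 to 0.40) in osteoblast-like cells. On the lower side, CAR stromal-like cells had Nrp2 at -0.30, Sema6d at -0.25 and Nrp1 at -0.20, and osteoblast-like cells had Unc50 at -0.30. The sign was the other way for Nrp2 in osteoblast-like cells (0.12) and for Sema6d in osteo-primed cells (0.24). Within CAR stromal-like cells Sema6d had 0.08 in female and -0.37 in male cells. Slit2 (-0.02) and Sema7a (-0.01) in osteo-primed cells and Sema3d (0.07) and Sema3b (-0.18) in osteoblast-like cells had intervals that held a ratio of 1, so no difference between the pools was detectable at this depth.

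The genes that act with these ligands and receptors were taken from 3 lists: 37 semaphorin partners (plexin effectors, co-receptors and integrins), 25 Slit and Robo partners (srGAP proteins, heparan sulfate carriers and cytoskeletal effectors) and 19 netrin and Unc5 partners. Their counts stand beside the shares of all genes given above for each class, from 2.7% to 13.9% in 1 direction, and with so few genes past the fold they are not set apart from them. In CAR stromal-like cells 2 of 18 compared semaphorin partners were past 1.5-fold higher, Fyn, a Src-family kinase (11.4 and 33.3 CPM, log2 ratio 1.53, 0.88 to 2.24), and Chl1, an adhesion molecule of the L1 family (44.0 and 67.3 CPM, 0.61). Flrt2, an Unc5-binding membrane protein, was the only one of 10 netrin and Unc5 partners past the fold there (208 and 400 CPM, 0.94), and none of 21 Slit and Robo partners was. In osteo-primed cells 2 of 18 semaphorin partners were lower, Mical2, an actin-oxidizing effector (69.5 and 45.6 CPM, -0.61), and Rras, a small GTPase (-0.60, with an interval that reached 0.003). Of 22 Slit and Robo partners there, Sdc1, a heparan sulfate carrier, was lower (63.2 and 40.4 CPM, -0.65), and none of 9 netrin and Unc5 partners was past the fold. In osteoblast-like cells Farp1 (70.9 and 132 CPM, 0.66), Ptk2 (0.63) and Flrt2 (0.59) were higher, and Gipc1 (-0.69) and Dcc, the netrin receptor (52.9 and 34.6 CPM, -0.85), were lower, out of 16, 20 and 10 compared in the 3 lists. Dcc was also lower in cluster 8, at 115 and 60.1 CPM (-1.06), where Dpysl2 (-0.78) and Pak1 (0.79) were past the fold too.

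Because the share of female cells differed between the pools, the members were also set side by side by sex within each pool. The number of animals of each sex is not stated, so these values compare cells, not animals. In CAR stromal-like cells Plxna2 had 604 CPM in female and 1407 in male cells of the control pool, a log2 ratio of female over male of -1.22 (-1.35 to -1.09), and 754 and 1314 CPM in the immobilized pool, -0.80 (-0.97 to -0.63). In osteo-primed cells female and male cells had 504 and 833 CPM (control) and 541 and 890 CPM (immobilized). Male cells were thus higher in both pools and both classes. In the control pool 12 members were compared in CAR stromal-like cells, 1 past 1.5-fold higher in female cells (Slit2) and 2 higher in male cells (Plxna2 and Sema5a), beside 6.81% and 6.11% of 5005 genes. In the immobilized pool 14 were compared, with Sema6d higher in female and Plxna2 in male cells, beside 3.98% and 7.08% of 4799 genes. In osteo-primed cells of the control pool 15 members were compared, with Unc5c and Sema4d higher in female cells and none in male cells, beside 20.3% and 4.87% of 3940 genes, after centring on the median gene, which lay -0.15 log2 from 0. In the immobilized pool 18 were compared, with Ntn1, Sema3d, Sema4d and Unc5b higher in female and Plxna2 in male cells, beside 5.74% and 4.41% of 4493 genes. In osteoblast-like cells of the immobilized pool 20 were compared and Unc50 alone was higher in female cells, beside 4.18% and 1.46% of 4450 genes. The 14 male osteoblast-like cells of the control pool were too few. Genes were compared where female or male cells had at least 50 UMIs. In osteo-primed cells, Unc5c and Sema4d (control) and Ntn1, Sema3d and Sema4d (immobilized) reached this only in female cells. Unc50 in osteoblast-like cells did too. These calls therefore depend on the side where the gene was higher.

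The ratio between the pools had opposite signs in female and male cells for 4 of 11 members with enough UMIs in both sexes of CAR stromal-like cells, and for 5 of 14 in osteo-primed cells. The same count over all genes was not made, so these counts are not read as particular to the members. For 1 of the members with opposite signs, Slit2 in CAR stromal-like cells, both intervals left out a ratio of 1. It had a log2 ratio of 0.12 (-0.02 to 0.25) between the pools over cells of both sexes. In male cells it went from 269 CPM (control) to 482 CPM (immobilized) (0.84, 0.64 to 1.04), and in female cells 579 and 376 CPM (-0.62, -0.87 to -0.38). The clusters of this class were nearly all of 1 sex: cluster 12 held 197 female and no male cells in the control pool, and clusters 0 and 6 held 4 and 1 female against 156 and 98 male cells. Cluster 13, with 2 female and 88 male cells in the immobilized pool, had only 12 cells in the control pool. State and sex therefore cannot be told apart in these values. Unc5b in osteo-primed cells was 225 CPM in female and 140 in male cells of the immobilized pool, and its ratio between the pools was 0.60 (0.31 to 0.89) in female and -0.34 (-0.77 to 0.11) in male cells.

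**Figure D4:**
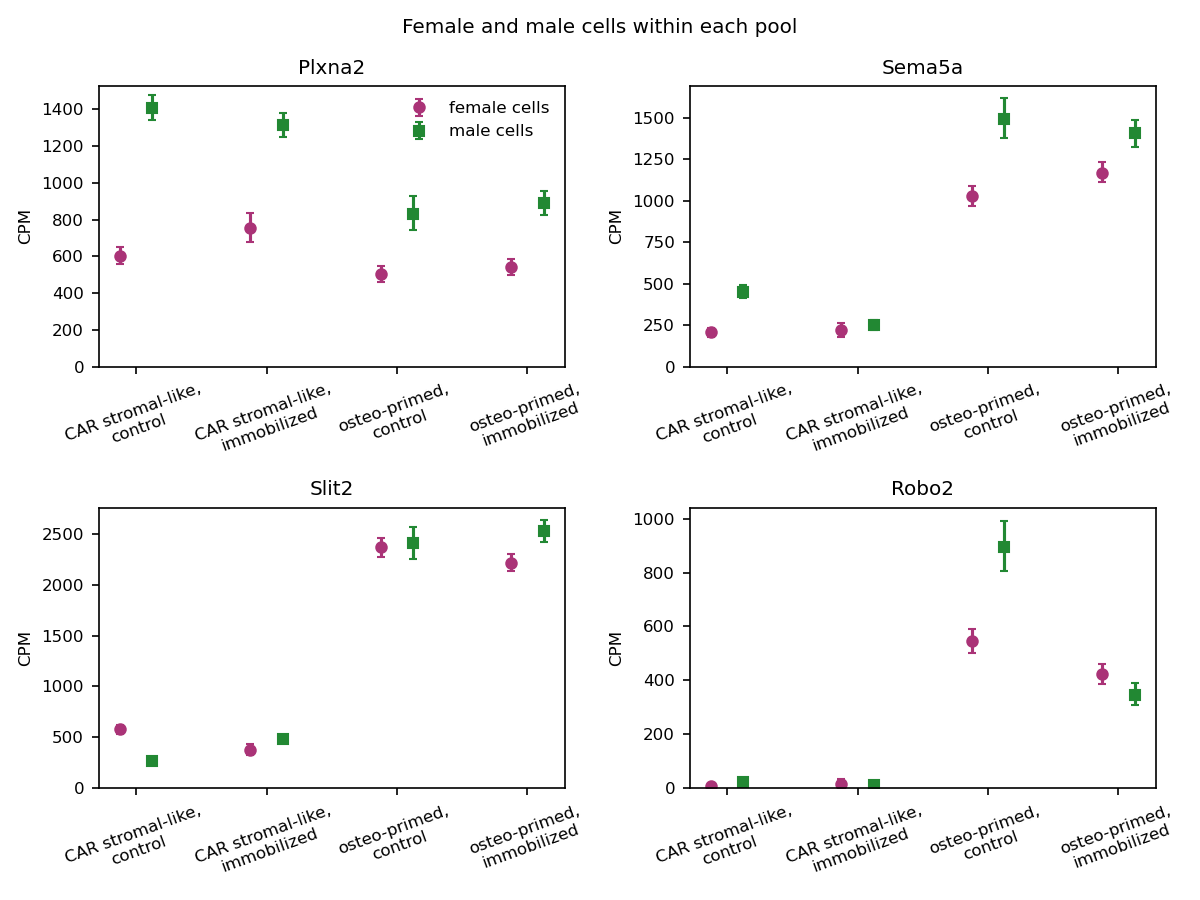
CPM (y axis, from 0) of Plxna2, Sema5a, Slit2 and Robo2 in female and male cells of CAR stromal-like and osteo-primed classes, by pool, with exact Poisson 95% intervals. Plxna2 is higher in male cells in all 4 comparisons, and Slit2 in CAR stromal-like cells has female cells above male cells in the control pool and below them in the immobilized pool.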

How the data were processed

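Gene-by-cell UMI counts were deposited by the authors as 1 filtered matrix per sequencing lane, made with Cell Ranger 7.0.0 on mm10 per the submitters' processing notes; the annotation release, and whether intronic reads were counted, are not given in the sources used here. The lanes of a pool shared 1617 and 1747 barcodes and differed by less than sampling noise (mean chi-square 0.534 and 0.586 per gene), so they were averaged and counted as 1 sample. Between the pools 3 barcodes were shared. Lanes held 9960011 to 10860328 UMIs.

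Cells needed at least 500 genes in both lanes and under 10% mitochondrial UMIs, and 18 and 9 Scrublet doublet calls were removed. Cells were scaled, clustered (scanpy 1.11.5; 2000 variable genes, 30 components, 15 neighbours, Leiden resolution 1.0) and named by markers: more than 2-fold over other cells and in at least 10% of cells, with at least 3 markers and 30% of a list. A cluster whose 10 leading genes against cells outside its class held more markers of another list than of its own stayed unnamed; against all other cells, clusters 1 and 5 would not have passed. This rule was made with the clusters in view. Sex came from Xist and Y-linked UMIs. UMIs at the 3′ end were not divided by gene length.

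UMIs were summed per class and pool. Ratios are log2 of CPM with 0.5 UMIs added, centred on the median gene where that lay more than 0.1 from 0, with exact conditional binomial intervals. Intervals of levels are exact Poisson and those of shares Clopper-Pearson, at 95%, and a 0 was read against 3 counts where no interval is given. Intervals cover counting error only. Members described in full were those past 1.5-fold with an interval without 1 and the same sign in each lane, the 3 with most CPM per class, the one with most UMIs per role, those 5-fold above other classes, and Sema3a and Sema4d. The members and lists were chosen with earlier results of these data known.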

Additional observations from a re-analysis of the deposited data

Results flagged for a closer look

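Among the members past 1.5-fold in a class, Robo2 and Sema5a had ratios of opposite sign in different classes under the same contrast, the immobilized over the control pool. Sema6d and Nrp2, both inside 1.5-fold, also had opposite signs with intervals that left out a ratio of 1. Sema6d was at -0.25 in CAR stromal-like and 0.24 in osteo-primed cells, and Nrp2 at -0.30 in CAR stromal-like and 0.12 in osteoblast-like cells. Within female cells Sema6d was 0.076 (-0.255 to 0.392) in CAR stromal-like and 0.13 in osteo-primed cells. Within male cells it was -0.37 and 0.56, so its opposite signs were seen in male cells only. For Robo2 the log2 ratio was -0.70 in osteo-primed and 0.18 in osteoblast-like cells. For Sema5a it was -0.47 in CAR stromal-like, 0.12 in osteo-primed and 0.59 in osteoblast-like cells. Within female cells Sema5a had 0.09 in CAR stromal-like, 0.19 in osteo-primed and 0.65 in osteoblast-like cells. Within male cells it had -0.86 in CAR stromal-like and -0.09 in osteo-primed cells, and male osteoblast-like cells could not be compared. Opposite signs of Sema5a between classes were thus not seen within 1 sex. With 1 pool per group the difference between classes was not tested. The Sema5a value of CAR stromal-like cells moved to -0.23 without cluster 13.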

How the results depend on the processing

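The log2 ratios of the named members were recomputed 451 times under the other settings: 390 stayed within the interval of the reported value, 61 moved outside it, and none that was past 1.5-fold turned its sign. By its ratio alone, Ntn1 in osteo-primed cells stayed past 1.5-fold in all 12 settings (1.12 to 1.53). With the stricter cell filter, in male cells only and without clusters 1 and 5 it had too few UMIs to be compared. It is therefore not in the counts of members for those settings. Robo2 in osteo-primed cells stayed past 1.5-fold in 10 of 12 (-1.37 to -0.37). In osteoblast-like cells Plxna4 did so in 6 of 11 (0.44 to 0.99) and Sema5a in 4 of 11 (0.45 to 0.83). The counts are small and move by 1 or 2 members. In CAR stromal-like cells, where none was past the fold, 1 was higher with stricter (1000 genes, 5% mitochondrial) or looser (200 genes, 20%) cell filters, with clustering without the members and without clusters 1 and 5. There 1 was lower with a count minimum of 10, and 1 higher and 1 lower with 1 cluster mix for both pools or in female cells only, and 4 higher and 1 lower in male cells only. Its median was -0.045 with 1 cluster mix and 0.018 without cluster 13. In osteo-primed cells the higher count was 3 with a count minimum of 10 and in female cells, 2 at Leiden resolution 2.0, and 0 with a count minimum of 100 and without clusters 1 and 5. With 1 lane left out it was 1 to 2. The lower count there was 0 at 2-fold, in female cells and with clustering without the members, and the median was 0.002 in male cells and 0.056 without clusters 1 and 5. In osteoblast-like cells the higher count was 7 and the median 0.456 on total counts, uncentred. The higher count was 1 with a count minimum of 100 and with 1 cluster mix, and 0 at 2-fold, with the looser filter, with doublet calls kept, at resolution 2.0, with clustering without the members, and with cluster 8 counted as osteoblast-like. The lower count there was 2 with a count minimum of 10 and 1 with the stricter filter and with cluster 8. The last setting and those without clusters 1, 5 or 13 were chosen after seeing the data, and the causes of these moves were not tested. Male osteoblast-like cells alone could not be compared, as the control pool held 14. No paired analysis was possible because the replicate numbers are lanes of 1 pool. Depth limits Ntn1 and Plxna4 most, at 23 to 95 UMIs a pool.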

Other observations

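In the 41 osteocyte-like cells of the immobilized pool, Sema5a had 1680 CPM (1427 to 1965) and Nrp2 711 CPM, while Plxna2 had no UMI. The control pool held 5 such cells, too few for a comparison. In the endothelial-like cells, 9 and 17 in number, Plxna4 had 157 and 495 CPM, Nrp1 992 and 681 CPM, and Plxnd1 330 and 595 CPM.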
